A study of Mus musculus with 6 samples.

Results

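The podocyte and glomerulus genes described here are Ptpro, Podxl, Cd2ap, Actn4, Npnt, Vegfa, Tcf21, Foxc2 and Lmx1b, 9 genes chosen by name and measured by 10 probe sets, out of 10833 probe sets with a single gene symbol (8251 genes). Foxc2 had 2 probe sets and every other gene had 1. They were read from 6 one-colour expression arrays of whole embryonic mouse kidney (metanephros) at E14.5. The 4 wild-type samples, labelled CD-1, each pooled 2 kidneys. The 2 Wnt4 mutant samples, labelled strain 129 and carrying the allele Wnt4tm1Amc, each pooled 8 to 10 kidneys taken from 4 to 5 embryos. The labels do not state the zygosity of the mutants, and the mating text given for all 6 samples names CD-1 mice. Strain label, pool size and genotype ran together and cannot be told apart. Wnt4 is needed for mesenchyme to form the renal vesicle, the first epithelial stage of the nephron, and per the study's design text the question was which genes mark the vesicle and the parts of the nephron that follow.

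Podocytes are the epithelial cells that wrap the capillaries of the glomerulus, the kidney's filter. They arise from the proximal end of the nephron after the renal vesicle has formed, and they carry interdigitating foot processes joined by the slit diaphragm. Some of the genes here are products of the differentiated cell. Others, in particular the transcription factors Tcf21 and Foxc2, are also known from the kidney's mesenchyme or stroma, so a whole-organ measurement adds up several cell types.

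In the mutant, 3 of the 9 genes fell, 1 rose, 3 were tested and did not pass, and 2 gave signals too low to be tested. The falls were in Ptpro, a receptor phosphatase of the podocyte foot process (mean signal 331 in wild-type and 42.9 in mutant kidneys, the latter too near the low end for an exact fold), Npnt, a matrix ligand (wild-type mean 2.69 times the mutant mean), and Vegfa, an angiogenic factor (1.90 times). The rise was in Actn4, an actin crosslinker (mutant mean 1.43 times the wild-type mean). The transcription factors Tcf21 and Foxc2 did not pass and had small positive differences. By class, of the 4 mature podocyte products 1 fell (Ptpro), 1 rose, 1 did not pass and 1 was not tested. The 2 secreted products, Npnt and Vegfa, both fell. Of the 3 transcription factor genes 2 did not pass and 1 was not tested. Over all 6082 genes tested, 6.35% were called lower and 5.13% higher. The median difference of the 7 tested members was -0.32 on the log2 scale, against 0.01 over all genes tested. The members were chosen with earlier results of these data known, so these comparisons with all genes are descriptions only. A gene was called when limma's adjusted p was under 0.05, and differences are mutant minus wild type in log2(signal + 16), a scale that understates change at low signals. In these whole kidneys fewer cells of a type and less RNA per cell cannot be told apart. Nothing in the labels says that the pools came from separate litters, so the p-values measure the spread between these pools only.

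**Figure D1:**
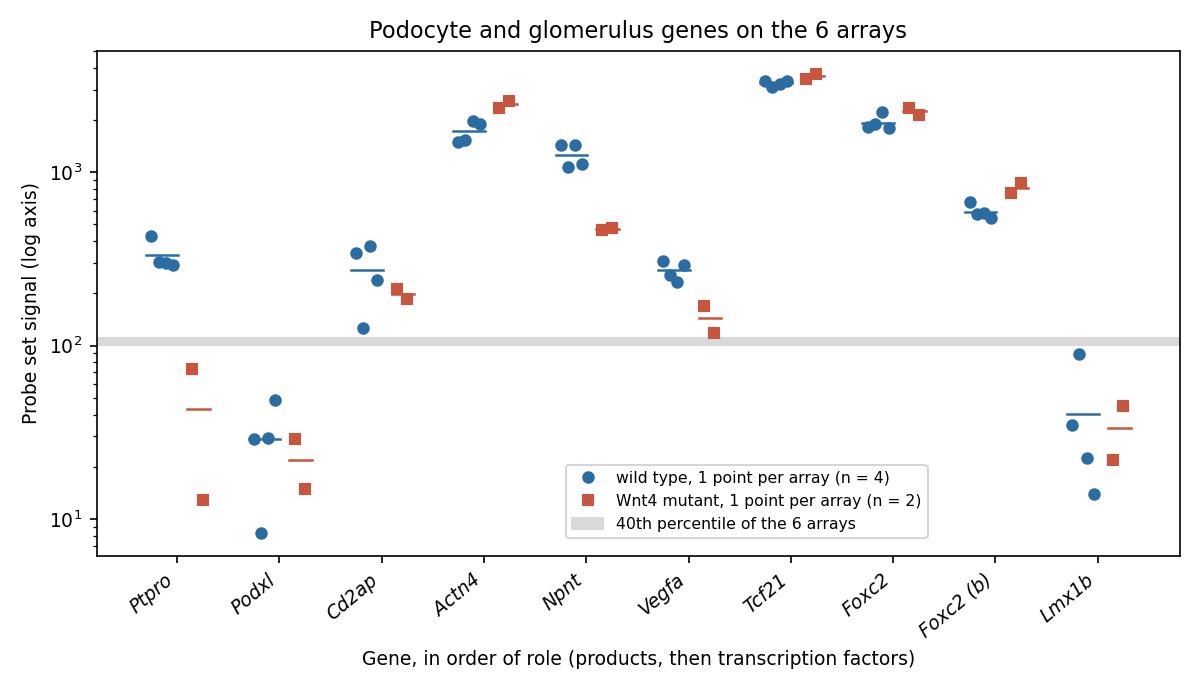
Probe set signal of each gene on each array, on a log axis. Circles are the 4 wild-type arrays, squares the 2 mutant arrays and short lines the group means; Foxc2 (b) is the dimmer Foxc2 probe set and the grey band spans the 40th percentiles of the 6 arrays (101.12 to 110.4). Ptpro, Npnt and Vegfa have both mutant squares below all wild-type circles, Actn4, Tcf21 and Foxc2 (b) have both above, and Podxl and Lmx1b lie below the band on all 6 arrays.

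Wnt4 itself, the check of the labels, gave signals of 829, 739, 946 and 699 on the wild-type arrays, in replicate order, against 74.2 and 34.5 on the mutant arrays, so the arrays went with their labels. The deposited signals had a trimmed mean near 500 on every array. Correlations between arrays were 0.939 to 0.969 within the wild type, 0.969 within the mutant and 0.918 to 0.934 between groups. The added bacterial control BioB (middle probe set) read 1645 to 1903 on wild-type and 930 to 950 on mutant arrays, the largest shift (-0.86 on the log2 scale) of 9 control probe sets. The other BioB probe sets had -0.85 and -0.86, and those of BioC, BioDn and CreX had -0.39 to -0.14. The part of these shifts in the results was not tested. Markers of other cells in a whole kidney also moved with the groups. Counts are of tested markers, and summed signals cover every marker of the list on the array, tested or not. That is 18 genes for skeletal muscle and 12 for macrophage and erythroid. Of the tested renal stroma markers 10 of 13 were higher, and their summed signal was 24510 to 26720 in wild-type and 46210 to 46250 in mutant kidneys. Of the skeletal muscle markers 7 of 13 were higher, with sums of 2069 to 2760 and 6752 to 7268, and 3 were higher without mutant replicate 1 and 3 without mutant replicate 2. Of the macrophage and erythroid markers 4 of 10 were higher, 3 of these being embryonic globins, with sums of 6232 to 9087 and 19500 to 20830, and 2 were higher without either mutant replicate. Of the ureteric bud markers 3 of 9 were higher, all keratins (Krt7, Krt8 and Krt18), and 2 were lower (Calb1 and Wfdc2). Of the nephron progenitor markers 3 of 9 were lower. These counts rested on single arrays: the bud list had 0 higher and 1 lower without mutant replicate 1, 0 and 0 without mutant replicate 2, and 1 higher without wild-type replicate 1 or 2, and its count lower was 1 without wild-type replicate 2 or 3. The progenitor count was 1 without mutant replicate 1 and 2 without mutant replicate 2 or wild-type replicate 1. The part of these shifts in the differences below was not tested. Of the genes counted as higher, the muscle gene Tnnc1 and the globin Hbb-bh1 passed the filter through the mutant arrays alone.

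The sequences before the starts of the 4 genes that passed are shown first, because Ptpro, Npnt and Vegfa moved one way and Actn4 the other. They come from RefSeq (build GRCm38.p6), cover 250 bases before to 50 after the annotated start, and are the outermost start where a gene has several. Such windows were matched for 7 of the 9 genes. Capitals mark matches to CANNTG, the E-box core that basic helix-loop-helix factors such as Tcf21 can bind; CANNTG matches the same places on both strands. They lie, in order, at chr6:137252049-137252348 (plus strand), chr3:132950242-132950541 (minus), chr17:46032328-46032627 (minus) and chr7:28962283-28962582 (minus).
Ptpro: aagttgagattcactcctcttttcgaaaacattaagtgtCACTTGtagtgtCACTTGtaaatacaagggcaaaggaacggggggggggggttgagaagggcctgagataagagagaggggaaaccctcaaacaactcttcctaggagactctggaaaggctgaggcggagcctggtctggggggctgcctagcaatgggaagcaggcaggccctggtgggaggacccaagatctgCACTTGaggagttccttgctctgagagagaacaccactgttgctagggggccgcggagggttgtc
Npnt: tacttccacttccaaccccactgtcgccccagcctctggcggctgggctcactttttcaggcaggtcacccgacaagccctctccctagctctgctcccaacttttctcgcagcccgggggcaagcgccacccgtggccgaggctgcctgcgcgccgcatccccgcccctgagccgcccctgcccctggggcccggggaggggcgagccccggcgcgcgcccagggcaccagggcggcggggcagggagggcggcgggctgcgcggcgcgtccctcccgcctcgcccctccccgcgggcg
Vegfa: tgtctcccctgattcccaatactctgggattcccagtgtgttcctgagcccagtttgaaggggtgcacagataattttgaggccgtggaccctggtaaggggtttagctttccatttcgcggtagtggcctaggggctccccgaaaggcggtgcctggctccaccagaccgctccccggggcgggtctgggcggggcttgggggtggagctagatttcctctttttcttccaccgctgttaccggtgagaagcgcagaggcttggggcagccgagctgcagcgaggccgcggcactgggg
Actn4: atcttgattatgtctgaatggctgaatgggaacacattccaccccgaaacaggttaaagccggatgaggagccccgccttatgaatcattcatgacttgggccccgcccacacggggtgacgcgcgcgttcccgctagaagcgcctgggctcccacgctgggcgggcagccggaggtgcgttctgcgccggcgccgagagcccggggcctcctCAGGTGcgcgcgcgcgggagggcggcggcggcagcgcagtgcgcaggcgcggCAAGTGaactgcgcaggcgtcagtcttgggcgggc
The Ptpro window held CACTTG 3 times, at positions -211, -199 and -15 from the start, the Actn4 window held CANNTG 2 times, and the Npnt and Vegfa windows shown held none. The windows of a second annotated start held 3 for Npnt and 2 for Vegfa. At the outermost starts, 4 of the 7 matched genes had at least 1 such match (Ptpro, Cd2ap, Actn4 and Lmx1b), and 72.3% of all 32851 windows of this length did; 17.6% held at least 3. Neither TAATTA, a homeodomain core of the kind LIM factors such as Lmx1b bind, nor GTAAACA, a forkhead core, was found on either strand in these 7 windows. They occurred in 5.29% and 3.65% of all windows. Matches and their absence describe the letters of these windows only.

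Ptpro gave the largest difference of the 9. It gave signals of 428, 305, 301 and 290 on the wild-type arrays, in replicate order, against 73.0 and 12.8 on the mutant arrays. The groups did not overlap, wild-type replicate 1 stood above the other wild-type arrays, and both mutant values were under the 40th percentile of the array they came from. The mean went from 331 ± 65.2 (SD, n = 4) to 42.9 ± 42.6 (SD, n = 2). The difference was -2.76 ± 0.41 (SE; 95% confidence interval -3.69 to -1.83; limma, adjusted p = 0.00331), and Ptpro passed the filter through the wild-type arrays alone, so its size is not exact. The groups failed to overlap in 37.4% of all tested probe sets, so non-overlap alone was common; it held for 6 of the 8 tested member probe sets, those of Ptpro, Npnt, Vegfa, Actn4 and Tcf21 and the dimmer one of Foxc2. Ptpro passed under all 15 alternatives run for it. Its size rested on the mutant arrays and on the offset: leaving out mutant replicate 1 gave -3.57 and leaving out mutant replicate 2 gave -1.95, while adding 1 instead of 16 before the log gave -3.36 and adding 64 gave -1.93.

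Podxl, the sialic acid-rich coat protein podocalyxin, which is also made by endothelium, could not be assessed. Its probe set gave signals of 29.0, 8.31, 29.3 and 48.7 on the wild-type arrays, in replicate order, against 28.7 and 14.9 on the mutant arrays. All 6 values lay between percentiles 6.63 and 27.4 of their arrays and the groups overlapped. It was below the filter. Fitted with no filter it had -0.19, with a 95% interval of -1.18 to 0.81 that allows changes in either direction.

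Cd2ap, an adaptor that links the slit diaphragm to actin and is made by many cell types, did not pass. It gave signals of 342, 127, 378 and 238 on the wild-type arrays, in replicate order, against 213 and 186 on the mutant arrays, so both mutant values fell inside the wild-type range. Its wild-type SD was 41.6% of the mean. The difference was -0.32 ± 0.37 (SE; 95% interval -1.16 to 0.53; limma, adjusted p = 0.651). The spread lay between wild-type replicates 1 and 3 (mean 360) and replicates 2 and 4 (mean 183). In a principal component analysis the second component (21.7% of the variance) set replicates 2 and 4 apart on opposite sides, and the third (14.1%) set both against replicates 1 and 3. Without replicates 2 and 4 Cd2ap passed with -0.80 (adjusted p = 0.0314), a fit added after the data were seen. Without replicate 2 alone it had -0.62 (adjusted p = 0.125).

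Actn4, which crosslinks actin in foot processes and in many other cells, rose. It gave signals of 1500, 1525, 1969 and 1908 on the wild-type arrays, in replicate order, against 2354 and 2563 on the mutant arrays, with no overlap. The mean went from 1725 ± 247 (SD, n = 4) to 2459 ± 147 (SD, n = 2), a difference of 0.52 ± 0.13 (SE; 95% interval 0.21 to 0.82; limma, adjusted p = 0.0407). Of the tested genes, 9.70% had a higher difference. The direction held in all 15 alternatives, but the call was lost in 7, among them without wild-type replicate 1 (0.45, adjusted p = 0.0871), wild-type replicate 2 (0.46, 0.0720), mutant replicate 1 (0.58, 0.159) and mutant replicate 2 (0.46, 0.269). On the same arrays 7 of 13 skeletal muscle markers were higher, or 3 without either mutant replicate; their part in the Actn4 difference was not tested.

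**Figure D2:**
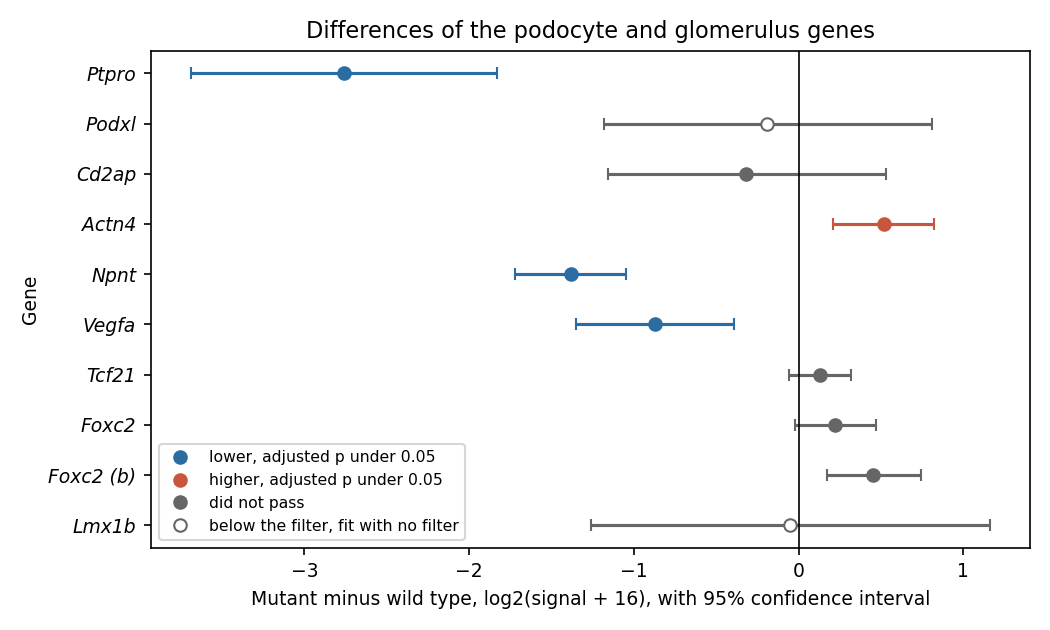
Mutant minus wild-type difference in log2(signal + 16) for each probe set, with its 95% confidence interval from limma; open circles are genes below the filter, from the fit without it. The intervals of Ptpro, Npnt and Vegfa lie below 0 and that of Actn4 above; those of Podxl (-1.18 to 0.81) and Lmx1b (-1.26 to 1.16) are wide and include 0.

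Both secreted products fell. Npnt encodes nephronectin, a matrix protein that binds integrin alpha 8 beta 1 and is made by the ureteric bud as well as in the glomerulus. It gave signals of 1435, 1074, 1438 and 1114 on the wild-type arrays, in replicate order, against 464 and 478 on the mutant arrays. The mutant values agreed closely with each other and lay well below every wild-type value. The mean went from 1265 ± 199 (SD, n = 4) to 471 ± 10.2 (SD, n = 2), a difference of -1.38 ± 0.15 (SE; 95% interval -1.72 to -1.05; limma, adjusted p = 5.93e-04). In the wild type, Npnt was lower in replicates 2 and 4 (mean 1094) than in 1 and 3 (mean 1437), a smaller spread than the step to the mutant. It passed under all 15 alternatives, between -1.58 and -1.30. Of the tested genes, 1.45% had a lower difference.

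Vegfa, which podocytes release toward glomerular endothelium and other kidney cells also make, gave signals of 308, 257, 233 and 292 on the wild-type arrays, in replicate order, against 169 and 118 on the mutant arrays. The groups did not overlap, and mutant replicate 2 lay close to its array's 40th percentile. The mean went from 272 ± 33.7 (SD, n = 4) to 143 ± 36.5 (SD, n = 2), a difference of -0.87 ± 0.21 (SE; 95% interval -1.35 to -0.39; limma, adjusted p = 0.0338). Vegfa passed in 7 of the 14 alternatives that tested it and was lower in all 14. The call was lost without wild-type replicate 1 (-0.81, adjusted p = 0.0871), wild-type replicate 4 (-0.83, 0.0532), mutant replicate 1 (-1.10, 0.0594) and mutant replicate 2 (-0.63, 0.252), with no filter (adjusted p = 0.0641), with the replicate block (-0.92, 0.0675) and without wild-type replicates 2 and 4 (-0.85, 0.0789).

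Among the transcription factors, Tcf21, a basic helix-loop-helix factor of mesenchyme, stroma and podocytes, was the brightest of the 9 and the steadiest in the wild type (SD 3.83% of the mean). It gave signals of 3353, 3093, 3243 and 3360 on the wild-type arrays, in replicate order, against 3440 and 3701 on the mutant arrays. Both mutant values were above all wild-type values, by a small step. The mean went from 3262 ± 125 (SD, n = 4) to 3570 ± 185 (SD, n = 2), and the difference of 0.13 ± 0.08 (SE; 95% interval -0.06 to 0.32; limma, adjusted p = 0.368) did not pass. The interval's lower end was -0.06 for the whole-kidney signal of these pools, and a change in podocytes alone was not tested. The Tcf21 difference passed in none of the 15 alternatives, where it ran from 0.08 to 0.18.

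Foxc2, a forkhead factor of kidney mesenchyme and podocyte precursors, gave signals of 1814, 1889, 2211 and 1807 on the wild-type arrays, in replicate order, against 2355 and 2151 on the mutant arrays at its brighter probe set. Mutant replicate 2 lay inside the wild-type range. The difference was 0.22 ± 0.11 (SE; 95% interval -0.02 to 0.47; limma, adjusted p = 0.226). The dimmer probe set read 674, 570, 579 and 543 on the wild-type arrays and 762 and 869 on the mutant ones, with no overlap and a difference of 0.45 ± 0.13 (SE; limma, adjusted p = 0.0545). It passed in 3 of 15 alternatives: the stricter filter on signal (adjusted p = 0.0404), array weights (0.0337) and leaving out wild-type replicate 1 (0.0485). Both Foxc2 probe sets were higher in the mutant in every alternative.

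Lmx1b, a LIM-homeodomain factor required in podocytes, gave signals of 34.7, 89.7, 22.3 and 13.8 on the wild-type arrays, in replicate order, against 21.9 and 44.9 on the mutant arrays. The groups overlapped, the wild-type SD was 85.0% of the mean, and every value lay below the 40th percentile of its array. With no filter the difference was -0.05 (95% interval -1.26 to 1.16), so neither a fall nor a rise of 2-fold is bounded by these arrays.

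**Figure D3:**
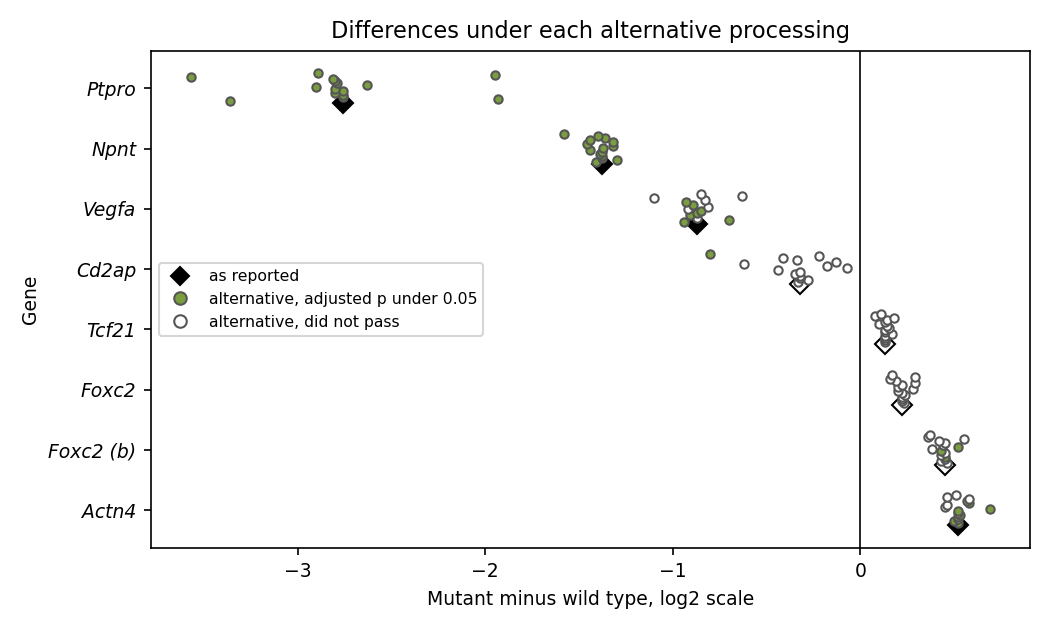
Mutant minus wild-type difference of each tested probe set as reported (diamonds) and under each alternative processing (circles), filled where the adjusted p was under 0.05. Ptpro and Npnt are filled throughout, Vegfa and Actn4 only in part, Tcf21 and the brighter Foxc2 probe set never, and no probe set crosses 0.

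Other podocyte genes were counted in lists. For several lists a count at an unadjusted p under 0.05 in limma is also given. The share of all tested genes at that threshold is not given here, so those counts describe the lists only. In a list of slit diaphragm and podocyte surface genes, 0 of 9 tested fell, 1 rose and 8 did not pass (median -0.02). At an unadjusted p under 0.05 in limma, 2 were lower, Pdpn (-0.39, adjusted p = 0.133) and Iqgap1, and 1 was higher. Cask, a scaffold of cell junctions, rose by 0.91 (1043 ± 128 to 1960 ± 62.1; limma, adjusted p = 0.00198). Tjp1, a junction protein also found in tubule and bud epithelium, had -0.02 (limma, adjusted p = 0.907), and Iqgap1 had -0.29 (adjusted p = 0.157). Wt1 and Synpo were counted in lists described below, with the transcription factors and the cytoskeleton. Wt1, a zinc finger factor made by nephron progenitors and kept by podocytes, had -0.48 (1107 ± 170 to 785 ± 45.4; adjusted p = 0.0823) and passed in 4 of 15 alternatives. Synpo, an actin-associated protein of foot processes, had -0.72 (208 ± 27.6 to 122 ± 40.3; adjusted p = 0.103) and passed in 1 of 14.

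Genes of the podocyte cytoskeleton included the partners of Podxl. Of 13 tested, 3 fell, 0 rose and 10 did not pass (median -0.35). At an unadjusted p under 0.05 in limma, 5 were lower and 0 higher. Slc9a3r1, a scaffold that ties podocalyxin-like membrane proteins to ezrin, fell by 1.03 (1525 ± 115 to 739 ± 79.0; limma, adjusted p = 6.61e-04). Ezr itself fell by 0.72 (1286 ± 85.0 to 773 ± 8.34; adjusted p = 0.00225), and both passed in all 15 alternatives. Both are also abundant in tubule brush border. Slc9a3r2, the related scaffold gene of this list, had -0.56 (limma, adjusted p = 0.207) and did not pass. Dag1, the matrix receptor dystroglycan, fell by 0.62 (adjusted p = 0.00424); without mutant replicate 1 it did not pass (adjusted p = 0.0679), and a dimmer probe set had -0.35 (adjusted p = 0.260). The actin-linked genes Tln1 and Cttn had 0.00 and -0.09 (adjusted p = 0.990 and 0.606). Dimmer probe sets had -0.25 and -0.39 for Tln1 (limma, adjusted p = 0.185 and 0.379) and -0.34 for Cttn (0.148), and none passed.

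Partners and neighbours of the transcription factors were tested too. Of 7 genes, 0 fell, 1 rose and 6 did not pass (median 0.28). At an unadjusted p under 0.05 in limma, 2 were lower and 2 higher. The lower ones were Wt1, given above, and Pax2. Pax2 had the largest difference of the list, -1.05 (226 ± 75.3 to 97.0 ± 25.9, adjusted p = 0.0961). Tcf12, an E protein that pairs with factors such as Tcf21, rose by 0.77 (2479 ± 492 to 4195 ± 195; limma, adjusted p = 0.0142), and the call was lost without either mutant replicate. Its wild-type replicate 4 was high (3214). Tcf3, another E protein, had 0.30 (adjusted p = 0.581), and Ldb1, a cofactor of LIM factors, had -0.04 (adjusted p = 0.920). Without wild-type replicates 2 and 4 the counts were 2 lower and 2 higher.

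Of 16 tested genes of the glomerular basement membrane and its receptors, 4 fell, 0 rose and 12 did not pass (median -0.13). At an unadjusted p under 0.05 in limma, 7 were lower and 0 higher. Lama1, a laminin chain of early nephron basement membrane, fell by 1.65 (965 ± 168 to 292 ± 4.18; limma, adjusted p = 4.18e-04) and passed in all 15 alternatives. The collagen IV genes Col4a1 and Col4a2 fell by 0.47 and 0.66 (adjusted p = 0.0233 and 0.0134) and Tinagl1 by 0.79 (adjusted p = 0.0288), and these 3 calls were lost without either mutant replicate. Without wild-type replicate 3, 2 genes of the list were lower. Lama5 and Lamb2, chains of the mature glomerular laminin, had -0.09 and 0.36 (adjusted p = 0.659 and 0.427), and Itgb1 had 0.17 (adjusted p = 0.256). Col4a3 and Col4a4, the collagen chains of the mature filter, were below the filter, at 8.31 and 21.7 in the wild type.

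The receptors for Vegfa did not pass. Kdr had 0.12 (318 ± 42.4 to 345 ± 31.5; limma, adjusted p = 0.711), Flt1 had -0.65 (190 ± 51.7 to 111 ± 2.96; adjusted p = 0.209) and Nrp1 had 0.46 (adjusted p = 0.254). Among its relatives Vegfc, a growth factor for lymphatic vessels, rose by 0.95 (140 ± 29.1 to 284 ± 61.8; adjusted p = 0.0461) but passed in only 5 of 14 alternatives and was lost without either mutant replicate and without wild-type replicate 1, 2 or 3, and Vegfb had -0.03 (adjusted p = 0.910). Whether Vegfa and Vegfc differ from each other was not tested. Angpt2, a vessel remodelling factor, fell by 0.82 (adjusted p = 0.0430), passed in 7 of 14 and was lost without either mutant replicate and without wild-type replicate 1, 3 or 4. Of the 12 genes of this list, 1 fell, 1 rose and 10 did not pass (median 0.05). At an unadjusted p under 0.05 in limma, 1 was lower and 3 were higher. The higher ones were Vegfc, Vegfd (0.83, adjusted p = 0.132) and Pgf (0.63, adjusted p = 0.0786). Of 14 endothelial markers, 5 fell and 0 rose (median -0.35). The summed signal of the 15 endothelial genes on the array, tested or not, was 10130 to 10770 in wild-type and 7895 to 7951 in mutant kidneys. At an unadjusted p under 0.05 in limma, 6 of the 14 tested were lower and 1 was higher. Among the 5 called was Nos3, the endothelial nitric oxide synthase, which fell by 1.76 (limma, adjusted p = 0.00431). Nos3 passed the filter through the wild-type arrays alone (mutant signals 46.7 and 41.8), so its size is not exact. Cldn5, a claudin of endothelium and podocytes, fell by 0.93 (1472 ± 143 to 765 ± 58.6, adjusted p = 0.00148). Without mutant replicate 1 the endothelial count was 2. Icam2 was lost in 6 of 15 alternatives, and the other probe sets of Emcn had -0.38 and -0.10 (adjusted p = 0.576 and 0.609). Cdh5, a defining endothelial cadherin, had -0.10 (adjusted p = 0.615).

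The receptor side of Npnt had no call: 0 of 4 tested genes fell, 0 rose and 4 did not pass. Itga8, the integrin chain that binds nephronectin, had -0.56 (168 ± 102 to 88.5 ± 9.21; limma, adjusted p = 0.621), and Gdnf, the growth factor downstream of that pair, had 0.14 (839 ± 99.9 to 919 ± 55.3; adjusted p = 0.565). Ret, the Gdnf receptor of the bud, was below the filter, at 73.0 ± 31.4 in wild-type and 8.35 ± 0.375 in mutant kidneys. At an unadjusted p under 0.05 in limma the count was also 0 of 4.

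Among the closest relatives of the members, 0 of 7 tested fell, 2 rose and 5 did not pass (median 0.63), and 1 rose without either mutant replicate or without wild-type replicate 1 or 2; at an unadjusted p under 0.05 in limma, 0 were lower. At the same unadjusted threshold, 5 of these relatives were higher: Actn3, Cd34, Vegfc, Vegfd and Pgf. Each is also counted in the muscle, endothelial or VEGF list, so these are not separate calls. Past the adjusted threshold were Actn3 and Vegfc, and Vegfc passed in only 5 of 14 alternatives. Actn1, the other non-muscle alpha-actinin, had -0.01 (2551 ± 233 to 2526 ± 178, limma, adjusted p = 0.960). Actn3, the fast skeletal muscle form, rose by 1.05 (295 ± 31.6 to 628 ± 10.2; adjusted p = 0.00203), with a dimmer probe set at 0.85 (adjusted p = 0.266). In a list of mesangial and pericyte genes, 1 of 7 tested fell (Mcam, by 0.94) and 1 rose (Thy1, by 1.12). Without wild-type replicate 2, 2 fell. The summed signals of the 8 genes of this list on the array, tested or not, were 2398 to 3008 in wild-type and 2555 to 2686 in mutant kidneys. Whether Mcam and Thy1 mark only those cells here was not tested.

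**Figure D4:**
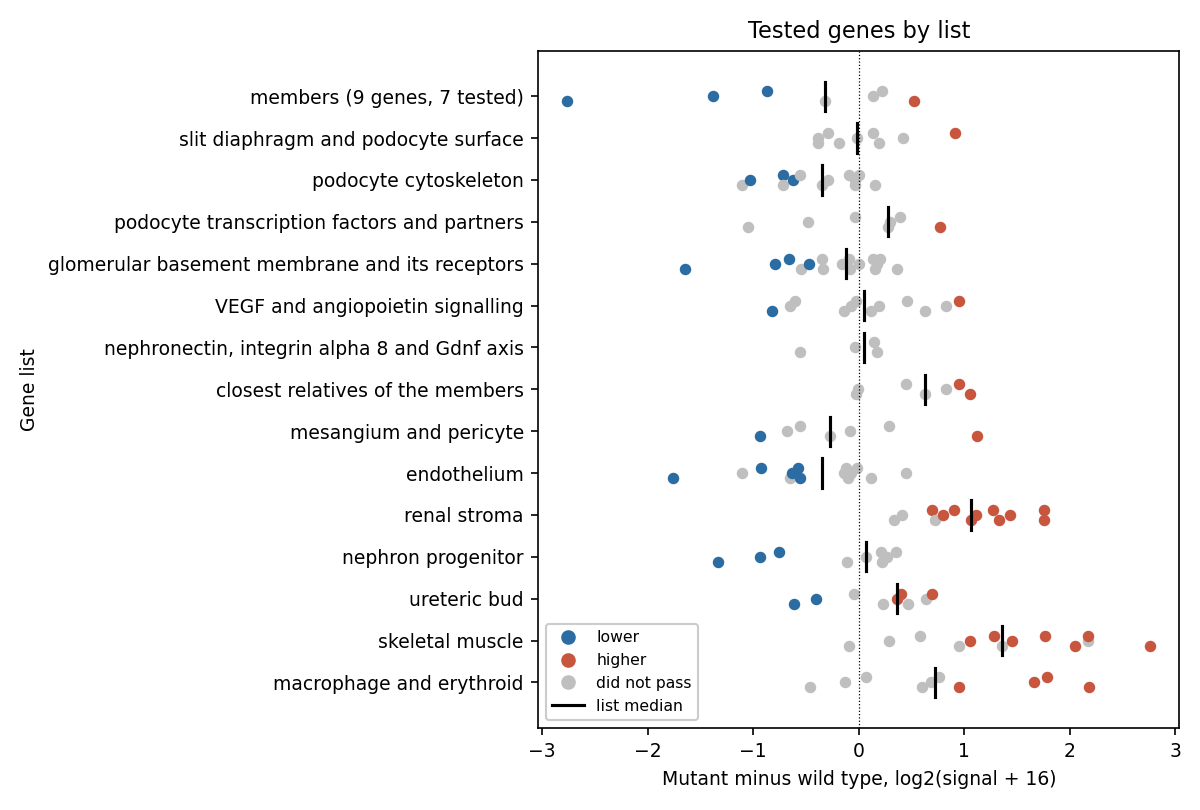
Mutant minus wild-type differences of the tested genes, 1 point per gene, for the members and for each list; black bars are medians, and coloured points had an adjusted p under 0.05. Ptpro is the leftmost member at -2.76; the stroma list (median 1.06) and muscle list (1.36) lie mostly to the right of 0.

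Across the 6 arrays the genes that tracked Ptpro most closely, by Pearson correlation of log2 values over n = 6 arrays, were Sult1d1 (r = 0.993), D030056L22Rik (0.992) and Slc12a1 (0.992), the last a transporter of the loop of Henle. Those for Npnt were Fhl2 (0.993), Stard10 (0.991) and the cell cycle gene Ccnd1 (0.990), and those for Vegfa were Dctn5 (0.996), Efhd1 (0.995) and Polr2i (0.994). Those for Actn4 were Mtif2 (0.994), Cd83 (0.990) and Rbbp7 (0.990). For Tcf21 they were Nipbl (0.990), Trp53bp1 (0.984) and Plec (0.979), for Foxc2 Ap5s1 (0.982), Lgals4 (0.978) and Rtn2 (0.977), and for Cd2ap Smyd5 (0.981), Sh2b3 (0.970) and Trak2 (0.969). The points share the arrays and the step between the groups, and 286 genes reached 0.9 with Ptpro, 344 with Npnt and 75 with Tcf21, so these orders are a description only.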

How the data were processed

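RNA of 6 pools (4 wild-type, 2 mutant) was amplified in 1 round and hybridised to MG_U74Av2 arrays, per the labels. The authors deposited linear intensity values computed in GCOS (Affymetrix), per the submitters' processing notes; version and settings: not given in the sources used here. Each column mean without the lowest and highest 2% was 500.27 to 500.29. Depth has no counterpart here; the number of arrays limits precision, and detection calls were not used.

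Names came from the platform annotation, updated through gene identifiers to RefSeq (GRCm38.p6): 10833 of 12422 probe sets had 1 symbol, 396 several and 1193 none; 10817 matched RefSeq. The 66 controls were set aside. Probe sets above their array's 40th percentile on at least 2 arrays were kept (7981). A gene was represented by its brightest probe set. log2(signal + 16) was fitted with limma 3.58.1 (R 4.3.3; lmFit, eBayes with a variance trend, no covariate), adjusted by Benjamini-Hochberg over all kept probe sets. The fit was tested on simulated data. Alternatives were other offsets, filters, a normalization, variance models, a replicate block and leaving out arrays. The genes named are the members, the list genes past the threshold with the largest differences, others of high signal, and those most like each member; Wt1, Synpo, Itga8, Kdr, Flt1, Ret and the other list genes outside this rule were chosen for their role after their values were seen. The members and lists were chosen with earlier results of these data known. No permutation p under 0.0667 is possible with 4 against 2 arrays.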

Additional observations from a re-analysis of the deposited data

Results flagged for a closer look

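Of 57 probe sets screened (the members and the list genes past the threshold), 5 had 1 of the 4 wild-type arrays far from the other three, by the gap to the nearest array over the whole range in log2(signal + 16); chance alone marks about 1 in 20. For Ptpro the ratio was 0.873 for wild-type replicate 1 (428), the highest array; without it the difference was -2.63 (limma, adjusted p = 0.0165). For Tcf12 it was 0.882 for replicate 4 (3214). For the muscle genes Tnnt1 and Myog it was 0.875 and 0.834, both for replicate 4, which read 301 and 63.3. For the endothelial gene Icam2 it was 0.845 for replicate 2 (548).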

How the results depend on the processing

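Ptpro and Npnt were lower and past the threshold in all 15 alternatives that tested them, and no tested member changed direction in any. The count of members lower was 3, or 2 where Vegfa was lost or not tested; without wild-type replicates 2 and 4 it was 3, with Cd2ap in place of Vegfa. The count higher, 1 (Actn4), was 0 with no filter, 0 with no variance trend, 0 without wild-type replicates 2 and 4, and 0 to 1 when single arrays were left out. With the filter at the 60th percentile Vegfa was not tested. The labels do not say that a replicate number marks a shared litter. Deviations of same-numbered samples from their group means had r = 0.003 and -0.0153. With 2 mutant arrays the mutant deviations mirror each other, so these values cannot decide whether the numbers mark pairs. With the replicate number as a block, 2 members were lower and 1 higher, and Vegfa had -0.92 (adjusted p = 0.0675); over all probe sets 362 were lower and 341 higher. All probe sets counted 488 lower and 371 higher as reported, 738 and 613 with array weights, and 188 to 553 and 114 to 448 when single arrays were left out; the cause was not tested. Of 420 list counts under the alternatives, 358 stayed within 1.5 times the reported count, 48 were smaller and 14 larger. Signals near the low end limit Podxl, Lmx1b and the mutant values of Ptpro.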
